A study of Mus musculus with 2 samples.

Results

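The cells described here are 180 neuroendocrine-type cells from the pancreatic tumours of WTg mice, taken from 748 WTg cells that passed a filter of at least 500 detected genes, at least 5000 UMIs (unique molecular identifiers, each counting 1 captured RNA molecule) and at most 20% of UMIs from mitochondrial genes. They were chosen by a score, the mean over 8 genes (Serpina1a, Serpina1b, Serpina1c, Pcsk2, Snap25, Chgb, Celf4 and Tnr) of the natural log of 1 plus counts per 10000 UMIs, and are the 180 cells with the highest score, or 24.1% of the WTg cells. The other 568 WTg cells are called the remaining cells. Because the cells were selected on these measured values, every level and ratio below is a description of the chosen cells and none was tested.

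The series holds 2 single-cell RNA libraries of pancreas, labelled EL1 and WTg, each from animals aged 6 weeks. EL1 is the strain EL1-Luc/EL1-Tag, which carries luciferase and the SV40 T antigen, a viral oncoprotein, under the elastase I promoter, so that the transgenes are driven in acinar cells and the tumours start there. WTg is the cross of that strain with CAG-Mettl3, in which the open reading frame of Mettl3, the catalytic subunit of the m6A RNA methyltransferase, is driven by the broadly active CAG promoter. Both groups therefore carry the tumour transgenes, and the strain background differs together with the Mettl3 transgene. The number of animals behind each library is not given in the sources used here. With 1 library per group, no difference between EL1 and WTg can be separated from a difference between libraries.

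Neuroendocrine cells store peptides and amines in dense-core vesicles and release them when calcium enters the cell. Granins pack the vesicle core, prohormone convertases cut the stored precursors, SNARE proteins and synaptotagmins fuse the vesicle with the membrane, and transcription factors such as Insm1, Neurod1 and Nkx2-2 drive the endocrine fate. Serpina1 encodes alpha-1-antitrypsin, an inhibitor of serine proteases that hepatocytes secrete in quantity. The mouse has several Serpina1 paralogues side by side on chromosome 12. Acinar cells, the other large secretory type of the pancreas, make digestive enzymes.

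The score cut the cells where there was no gap. The highest score was 2.81, the median of the chosen cells was 1.05 and the lowest was 0.751. The highest score among the remaining cells was also 0.751, their median was 0.216, and 151 of them scored 0. Within 0.05 of the lowest chosen score lay 24 chosen and 18 remaining cells, so the chosen cells are the upper end of a range. The chosen cells had a median of 36822 UMIs per cell (5060 to 188511) and 5922.5 detected genes, against 39814.5 UMIs and 5307.5 genes in the remaining cells. The median mitochondrial share was 3.97% and 3.84%. No barcode was shared between the kept cells of both libraries.

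**Figure D1:**
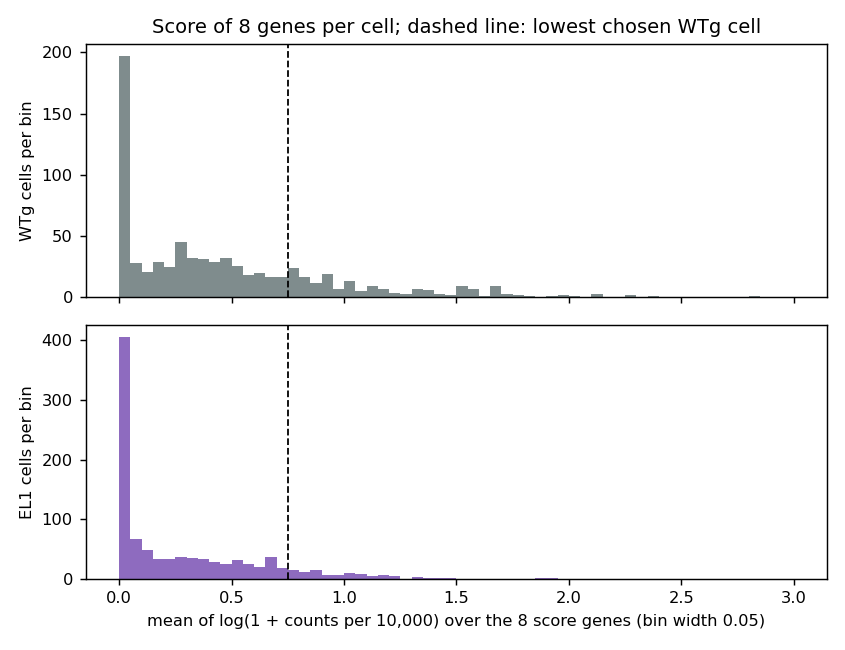
Histograms of the score of 8 genes for the 748 WTg cells (top) and 975 EL1 cells (bottom), as cells per bin on the y axis and the score on the x axis. The dashed line marks the lowest chosen WTg score, 0.751; the WTg histogram runs through it without a gap, and 98 EL1 cells lie at or above it.

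The promoter stretches of the Serpina1 paralogues are shown because these genes had large ratios in the chosen cells and because near-identical copies are hard to tell apart by reads. They are taken from RefSeq (build GRCm38.p6), on the minus strand of chromosome 12, with the letters GTTAAT, searched on both strands, in capitals and 40 bases on each side.
Serpina1a, chr12:103863595-103863680: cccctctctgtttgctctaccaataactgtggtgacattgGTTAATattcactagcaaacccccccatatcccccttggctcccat
Serpina1b, chr12:103738170-103738255: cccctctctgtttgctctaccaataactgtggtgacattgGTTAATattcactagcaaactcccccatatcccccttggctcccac
Serpina1c, chr12:103904932-103905017: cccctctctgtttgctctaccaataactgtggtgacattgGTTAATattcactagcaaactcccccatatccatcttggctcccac
Serpina1d, chr12:103773604-103773689: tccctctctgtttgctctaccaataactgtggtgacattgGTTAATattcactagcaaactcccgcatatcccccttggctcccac
Serpina1e, chr12:103956930-103957015: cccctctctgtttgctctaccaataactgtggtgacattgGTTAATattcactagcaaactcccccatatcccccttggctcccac
Each stretch was cut around the motif, so all 5 hold it, and its letters count among the shared positions. Of the 86 positions, 80 were the same in all 5, and pairs differed at 0 to 4 positions. Such near-identical copies are not 5 separate hits. No other of the 19 searched genes with an entry held GTTAAT. Of all 32851 promoters of 300 bases in the same table, 7.10% held GTTAAT. A match is a run of letters and does not show binding.

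A second set shows the only promoters, of the 19 asked genes with an entry, that held the full cyclic AMP response element TGACGTCA, in capitals, with the same flanks. They belong to Chgb, the granin of the score, and Slc18a2, the vesicular monoamine transporter.
Chgb, chr2:132781530-132781617, plus strand: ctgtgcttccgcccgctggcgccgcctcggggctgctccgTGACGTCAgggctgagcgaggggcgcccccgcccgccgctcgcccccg
Slc18a2, chr19:59260834-59260921, plus strand: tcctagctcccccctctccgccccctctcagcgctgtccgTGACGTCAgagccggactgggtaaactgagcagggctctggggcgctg
The element was present in 1.79% of the 32851 promoters. Snap25 and Celf4 had no entry.

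The genes of the score, which fixed the choice, had these levels. Levels are summed UMIs of a group scaled to counts per 1e6 UMIs of that group (CPM), ratios are log2 of chosen over remaining cells, and brackets give exact 95% intervals that cover counting error only. Serpina1c stood at 1769.9 CPM in the chosen cells and 97.7 in the remaining cells, and per cell it ran from 0 through a median of 6.36 to 269 counts per 10000, against 0, 0 and 19.99 in the remaining cells. Serpina1b had 222 against 3.67 CPM and Serpina1a 197 against 4.43 CPM. The tops of the ranges came from few cells: the 5 highest cells held 42.9% of the Serpina1a UMIs of the chosen cells.

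Pcsk2, the prohormone convertase that matures glucagon and other peptides, had 133 CPM against 5.46, with a median of 0.627 and a highest cell of 15.05 counts per 10000. Chgb (chromogranin B) had 735 against 128 CPM and was found in all 180 cells. Snap25, a SNARE of vesicle fusion, had 569 against 147 CPM. Celf4, a neuronal RNA-binding protein, had 176 against 34.9 CPM, and Tnr, the matrix protein tenascin-R, 96.0 against 15.3 CPM. Values of the remaining cells reached into the range of the chosen cells for each of these genes.

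The score joins 5 neural and 3 Serpina1 genes, and the cells that each set alone would take were counted. The 180 cells highest for the 5 neural genes alone shared 150 cells with the chosen cells, and the 180 highest for the 3 Serpina1 genes alone shared 137, with 107 cells in both. These counts share genes with the score and describe the choice itself. After each cell was thinned to 5000 UMIs, 155 chosen cells had a UMI of Serpina1a, Serpina1b or Serpina1c, 69 had Pcsk2, 59 had both and 15 had neither. Of the remaining cells, 113 had a Serpina1 UMI, 13 had Pcsk2 and 2 had both. Spearman's rho between the scores of both sets was 0.67 over all WTg cells of the filter and 0.0269 over the chosen cells. Within the chosen cells the sets thus had almost no relation. The cells were chosen on both sets, so these values describe the choice too.

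The label was checked on markers outside the score. Over all 12100 genes with at least 50 UMIs in WTg cells, 10.4% lay at a log2 ratio of 1 or more and 6.74% at -1 or less, with a median of 0.37. Centred on that median, the percentages were 4.79 and 8.83, so that the higher genes fell from 60.7% to 35.2% of all genes past either limit. Ratios below are uncentred, and should be read against 0.37. Of the 12 check markers, Chga, Scg3, Scg5, Pcsk1n, Syp, Insm1, Neurod1 and Nkx2-2 were past 1. Cpe, the carboxypeptidase that trims prohormones, was at 0.41 (0.36 to 0.47), close to the median of all genes. Scg2, Isl1 and Pax6 stayed under 50 UMIs. The neuroendocrine name thus rests on granin, vesicle and Insm1 genes and not on the islet factors Isl1 and Pax6.

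Chga (chromogranin A), the granin most used as a neuroendocrine marker, was at 5881 CPM in the chosen cells and 1009 CPM in the remaining cells, a log2 ratio of 2.54 (2.52 to 2.57). Per cell it ran from 1.90 through 48.4 to 245 counts per 10000 in the chosen cells and from 0 through 3.52 to 137 in the remaining cells. Every chosen cell had Chga UMIs, and 2.29% of the remaining cells lay above the median of the chosen cells. All 3 granins that passed the minimum were past 1, with Scg3 at 1.91 (1.71 to 2.10) and Vgf at 1.505 (1.44 to 1.57). Chga was also found in cells that should lack it. After thinning, it had a UMI in 100% of the chosen cells, 57.9% of the remaining cells and 28.2% of the 39 macrophage-type cells (at least 3 of C1qa, C1qb, Cd68, Csf1r and Ptprc). The median depth of those 39 cells was 36663 UMIs. Acinar enzyme genes took a median of 0.151% of their UMIs, with an upper quartile of 0.305% and a highest cell of 32.7%. Another 3 cells that met the same markers are among the chosen cells and were not counted as macrophage-type, and C1qa, 1 of the markers, was also found in most chosen cells, so these 39 cells are a mixed background.

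Of the 6 prohormone-processing genes, 5 were past 1. Pcsk1n, which encodes an inhibitor of the convertase Pcsk1, had the largest ratio, 5.36 (4.43 to 6.46), from 124 UMIs in 18 chosen cells and 10 UMIs in 5 remaining cells, and 66.9% of the 124 UMIs came from 5 cells. Pam, which amidates peptides, was at 1.69 (1.59 to 1.79). Pcsk1 was at 1.55 (1.32 to 1.78) and Scg5, the chaperone of Pcsk2, at 1.42 (1.31 to 1.52).

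The hormones that define islet cells were near 0. Ins2, Iapp, Gcg and Sst had no UMI in any chosen cell, and 0 of 180 cells allows a share of cells with a UMI of up to 2.03% by the exact interval. Among the 28 hormone and neuropeptide genes 8 passed the minimum, 4 were past 1 and 1 was past -1, with a median of 0.69, and 15 had no UMI in the chosen cells. Ghrl (ghrelin) was at 3.82 (3.07 to 4.65), from 77 UMIs in 27 chosen cells, and 53.2% of the 77 lay in 5 cells. Penk (proenkephalin) was at 1.42 (1.16 to 1.69). Gal (galanin) went the other way, with 259 CPM in the chosen cells and 529 CPM in the remaining cells, a log2 ratio of -1.03 (-1.10 to -0.96).

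Slc18a2, which loads amines into vesicles, had 75.02 CPM in the chosen cells against 2.67, a log2 ratio of 4.81 (4.44 to 5.20). Per cell it ran from 0 through 0.284 to 11.6 counts per 10000. After thinning it was found in 25% of the chosen cells (18.9 to 32.0), 0.528% of the remaining cells (0.109 to 1.54) and 0 of 39 macrophage-type cells; without thinning the shares were 58.3%, 7.22% and 2.56%. Hdc, which makes histamine, had 117 UMIs in 16 chosen cells and 5 UMIs in the remaining cells, and 84.6% of the 117 lay in 5 cells. Both genes were found together in 13 chosen cells. Ddc, which makes serotonin and dopamine from their precursors, was at 0.57 (0.34 to 0.79). Of 6 amine genes that passed, Hdc and Slc18a2 were past 1.

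The release machinery was high as a group. Of 28 vesicle genes that passed, 20 were past 1 and 0 past -1, with a median of 1.57. Syt1, the fast calcium sensor of vesicle fusion, was the highest at 4.30 (3.73 to 4.92), with 22.9 against 1.16 CPM and UMIs in 48 chosen cells. Stx1a, the SNARE partner of Snap25, was at 2.73 (2.24 to 3.23). Syp (synaptophysin) was at 1.63 (1.48 to 1.78). Cplx2 (complexin) was at 2.12 and Cadps, which primes dense-core vesicles, at 2.05. Rab27b was at -0.56 (-0.89 to -0.24) and Unc13b at -0.10 (-0.39 to 0.17).

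Channels of excitable cells also lay high, with 15 of 20 past 1, 0 past -1 and a median of 1.37. Kcnmb2, a subunit of the large-conductance potassium channel, was at 2.70 (2.54 to 2.87). The calcium channel genes Cacna1h at 2.07 and Cacna1d at 1.46 were both past 1. Kcnj11 and Abcc8, the pore and the sulfonylurea receptor of the KATP channel, were at 2.03 (1.39 to 2.68) and 1.62 (1.06 to 2.18). Among neuronal RNA-binding proteins 7 of 12 were past 1 and 0 past -1, led by Celf6 at 2.81 (2.10 to 3.56). Of the adhesion genes, 4 of 5 were past 1 and 0 past -1, with Ncam1 at 1.71 (1.61 to 1.80). Centred on the median of all genes, 10 of 20 channel genes, 5 of 12 RNA-binding proteins, 2 of 5 adhesion genes, 15 of 28 vesicle genes and 2 of 8 hormone genes were past 1.

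**Figure D2:**
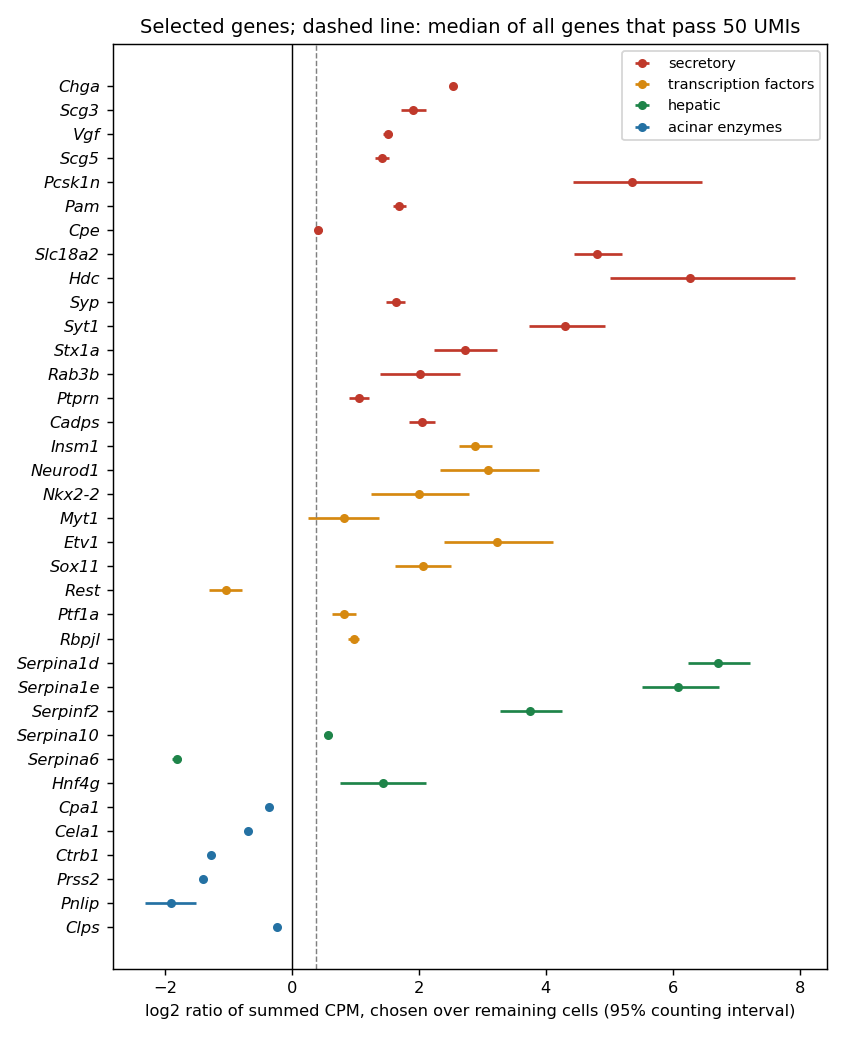
Log2 ratio of summed CPM, chosen over remaining WTg cells, on the x axis for selected genes on the y axis, with exact 95% counting intervals as bars. The dashed line is the median of all genes, 0.37. Secretory genes and endocrine factors lie mostly to its right and the acinar enzymes drawn to the left of 0. The acinar enzymes drawn are a selection of their list, and Cel, which was higher in the chosen cells, is not among them.

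Endocrine transcription factors had a median of 1.66, with 11 of 15 past 1 and 1 past -1. Insm1, a zinc-finger repressor needed for endocrine differentiation, had 52.6 against 7.10 CPM, a log2 ratio of 2.89 (2.63 to 3.15), and was found in 97 chosen cells. After thinning its share was 16.7% (11.5 to 22.9) in the chosen cells, 2.82% (1.62 to 4.53) in the remaining cells and 2.56% in the macrophage-type cells. Etv1 was at 3.22 (2.40 to 4.12) in 29 cells, Neurod1 at 3.09 (2.34 to 3.89) in 20 cells and Nkx2-2 at 2.01 (1.24 to 2.78) in 25 cells. The 5 highest cells held 33.3% of the Etv1, 46.3% of the Neurod1 and 29.4% of the Nkx2-2 UMIs of the chosen cells. St18 was at 2.02, Prox1 at 1.93 and Pdx1 at 1.46.

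Some WTg cells carried markers of other cell types: 59 remaining cells and 2 chosen cells had a UMI of at least 3 of 29 such markers. With those cells left out, 10 of 14 endocrine factors were past 1 and 0 past -1. Rest, the repressor of neuronal genes, had 19.02 CPM in the chosen cells and 39.2 CPM in the remaining cells, a log2 ratio of -1.05 (-1.31 to -0.79), and -0.97 without those cells. Of the 10 Notch and REST genes, 1 was past 1 and 2 were past -1, the other being the ligand Dll4 at -1.10 (-1.88 to -0.40), which was at -0.64 without those cells.

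Acinar enzyme genes were lower in the chosen cells. Of 31 enzyme and granule genes, 17 were past -1 and 0 past 1, with a median of -1.28. Per cell, these genes took a median of 11.2% of UMIs in the chosen cells (0.585 to 28.4) and 22.8% in the remaining cells. Of the chosen cells, 176 lay under the median of 24.0% in the 509 remaining cells without other cell types. All 180 lay above the upper quartile of the macrophage-type cells, 0.305%, so acinar UMIs were present in every chosen cell; how many of them came from free RNA was not tested.

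Single enzymes differed widely. Ctrl, a chymotrypsin-like protease, had 2.51 CPM in the chosen cells and 277 CPM in the remaining cells, a log2 ratio of -6.78 (-7.52 to -6.14). Without thinning, Ctrl UMIs were found in 9.44% of the chosen cells and 21.1% of the remaining cells. The median Ctrl level per cell was 0 in both groups, so this ratio rests on a minority of the remaining cells. Dmbt1 was at -3.43 and Cela3b at -2.39. Cpa1 (carboxypeptidase A1) was at -0.36, Clps (colipase) at -0.23 and Amy2a5 (amylase) at -0.04 (-0.09 to 0.01), while Cel, the bile salt-activated lipase, was at 0.45. The genes of 1 programme were thus unequal in their ratios. The trypsinogen genes Prss1, Prss2, Prss3, Try4, Try5 and Try10 are close copies whose reads can be hard to assign to 1 gene, so their single values are uncertain.

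Ptf1a, the master factor of acinar identity, had 47.0 against 26.7 CPM, a log2 ratio of 0.82 (0.63 to 1.01), and its partner Rbpjl was at 0.97 (0.88 to 1.06). Bhlha15 (Mist1), which builds the secretory apparatus of acinar cells, went the other way at -0.69 (-0.83 to -0.55). None of the 6 acinar factors was past 1 or -1, with a median of 0.80, but centred on the median of all genes Bhlha15 was past -1, at -1.06. Without thinning, Ptf1a UMIs were found in 77 of 180 chosen cells, and 61 of these cells also had Insm1 UMIs. Both genes were found in 35 of 568 remaining cells. After thinning, Ptf1a had a UMI in 11.7% (7.37 to 17.3) of the chosen cells and 9.51% (7.22 to 12.2) of the remaining cells. Of the Ptf1a UMIs of the chosen cells, 36.8% lay in 5 cells. Doublets were not removed, and 7 WTg cells, 1 of them chosen, were called doublets when Scrublet was run.

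The enzyme share went down with the score. It was 6.66% in the 60 chosen cells with the highest scores, 11.8% in the next 60 and 14.8% in the last 60. Spearman's rho between score and share was -0.47 over the 180 chosen cells and -0.67 over 687 WTg cells without other cell types. The score and the enzyme share are both scaled to the same cell's UMIs, so they are not independent. The cause of their relation was not tested.

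**Figure D3:**
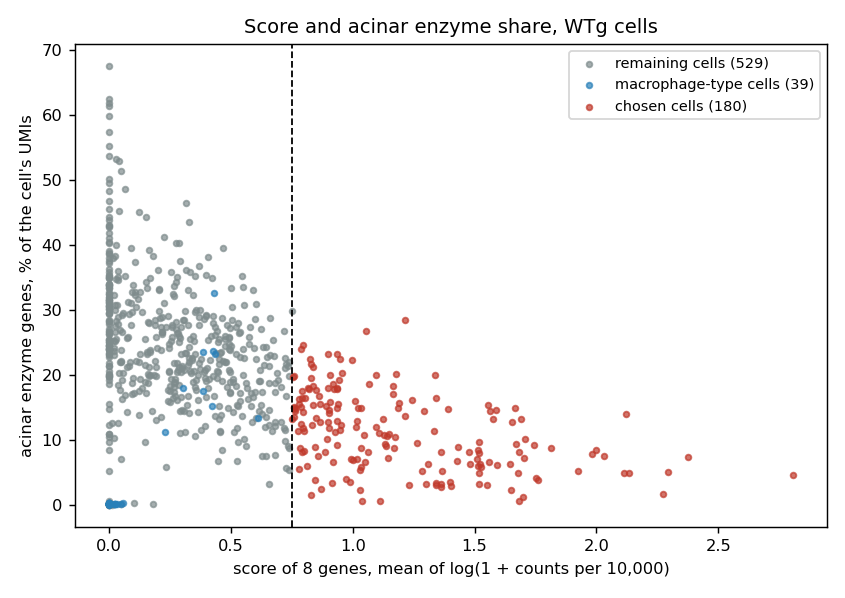
Percent of a cell's UMIs from acinar enzyme genes (y axis) against the score of 8 genes (x axis), 1 point per WTg cell; 39 macrophage-type cells are drawn apart from the other 529 remaining cells. The dashed line is the lowest chosen score; chosen cells span 0.585 to 28.4% with a median of 11.2%.

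The Serpina1 paralogues left out of the score had the largest ratios of the genes named by size, all with at least 200 UMIs. Serpina1d had 158 against 1.52 CPM, a log2 ratio of 6.71 (6.24 to 7.21), and ran per cell from 0 through 0.320 to 39.0 counts per 10000. Serpina1e had 67.8 against 0.997 CPM, a ratio of 6.09 (5.51 to 6.73). All 5 paralogues were found in 61 chosen cells and in 2 remaining cells, and no chosen cell lacked all 5. Serpina1c held 73.3% of the UMIs of the 5 genes, counted at the 3′ end with no division by length. The annotated span of Serpina1b (chr12:103728156-103830373) holds that of Serpina1d (chr12:103763594-103773592), and the promoter stretches of the copies were near-identical. Transcript sequences were not compared, so how reads of the copies were assigned or lost is uncertain. Serpina1d and Serpina1e are not independent of the genes of the score.

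Neighbours of the cluster, looked at after their values were seen, did not share these ratios. From Ddx24 (start at chr12:103407982) to Serpina3c (end at chr12:104153870), 23 genes were listed and 13 passed the minimum. Ppp4r4 was at 1.19 (1.06 to 1.31), Serpina10 at 0.57 (0.50 to 0.63) and Ddx24 at 0.73 (0.62 to 0.83). Serpina6, the corticosteroid-binding globulin, was at -1.82 (-1.89 to -1.75). Over the 180 chosen cells, Spearman's rho with Serpina1c was 0.70 for Serpina1b, 0.65 for Serpina1d, 0.62 for Serpina1e and 0.49 for Serpina1a. Among the neighbours it was 0.60 for Serpina10, 0.56 for Ppp4r4 and -0.03 for Serpina6, so Serpina10 and Ppp4r4 lay above the paralogue Serpina1a. Depth and library are shared by these points.

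Other hepatic genes went both ways. Of 17 secreted proteins that passed, 5 were past 1 and 4 past -1, with a median of 0.57. Serpinf2 (alpha-2-antiplasmin) was the highest at 3.75 (3.27 to 4.26), and Ambp was at 1.53 (1.49 to 1.58) with UMIs in 178 chosen cells. Afp was at -1.22 (-1.87 to -0.62). Of 8 hepatic transcription factors, 5 were past 1 and 0 past -1, with a median of 1.21. Centred on the median of all genes, 4 of the 8 were past 1 and 1 past -1. With cells of other types left out as well, 2 were past 1. Prox1 is on both this list and that of the endocrine factors. Onecut2 was at 1.75 (1.62 to 1.88) and Hnf4a at 1.38 (1.25 to 1.52).

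Among genes outside the score with at least 200 UMIs and found in at least 25% of the chosen cells, the highest ratios after Serpina1d, Serpina1e, Slc18a2 and Syt1 were those of Aard at 4.19 and Wdpcp at 4.01. Resp18, a protein of the regulated secretory pathway, was at 3.79 (3.37 to 4.23), and Uts2, the peptide urotensin 2, at 3.75 (3.33 to 4.19). Then came Serpinf2, Pappa2 at 3.58, Plagl1 at 3.27, the ductal keratin Krt7 at 3.08 (2.83 to 3.33), Egr4 at 2.98, Insm1 and the G protein subunit Gnao1 at 2.83. Of the Egr4 UMIs of the chosen cells, 86.4% lay in 5 cells. The same share was 53.1% for Aard, 45.4% for Resp18, 41.7% for Uts2, 40.1% for Wdpcp and 39.0% for Plagl1. It was lower for Pappa2 (36.2%), Krt7 (27.4%), Insm1 (26.4%), Serpinf2 (23.0%) and Gnao1 (19.2%). Krt7 was found in 78 chosen cells, while of the 9 ductal genes that passed 2 were past 1 and 1 past -1.

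**Figure D4:**
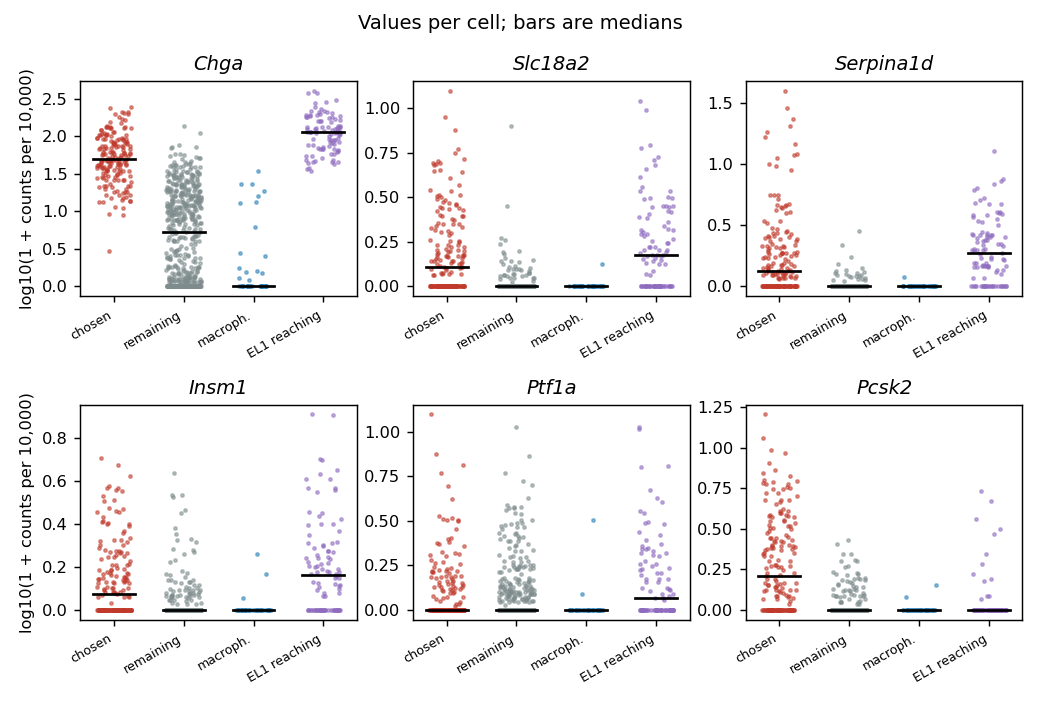
Counts per 10000 UMIs per cell, drawn as log10 of 1 plus the value, for 6 genes in the 180 chosen WTg cells, 529 remaining, 39 macrophage-type and 98 EL1 cells that reach the score; bars are medians. Chga is present in every chosen cell, and Pcsk2, a gene of the score, has a median of 0 in the EL1 cells.

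The chosen cells were split by Pcsk2 and by Neurod1 after their values were seen. Pcsk2 is a gene of the score, so the first split only describes the cells that the score took. Of the 180 cells, 122 had a Pcsk2 UMI and 58 had none, at median depths of 37085.5 and 36180.5 UMIs. Syt1 had 169 UMIs in the cells with Pcsk2 and 4 in those without. Pcsk1n had 121 and 3 UMIs, Neurod1 51 and 3, and Hdc 117 and 0, and most UMIs of Pcsk1n and Hdc lay in 5 cells, as given above. Slc18a2 had 73.8 CPM in the cells with Pcsk2 and 77.9 CPM in those without, and Chga 6241 and 5015 CPM.

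The 20 cells with a Neurod1 UMI are set beside the other 160. Sox11, a factor of immature neurons, was found in 55% of them and 4.38% of the others. Pcsk1n was found in 50% and 5%, and Myt1l, a neuronal factor, in 45% and 3.75%. Elavl4, a neuronal RNA-binding protein, was found in 5 of the 20 and 0 of the 160. Slc18a2 was found in 15% against 63.8%, Uts2 in 0 against 28.8% and the factor Etv1 in 0 against 18.1%. Hdc was found in 10% and 8.75%, and Resp18 in 60% and 28.8%. Ptf1a was found in 75% of the Neurod1 cells and 38.8% of the others. Mki67 was found in 65% and 43.1%, with 441 against 174 CPM. Serpina1c had 511 CPM in the Neurod1 cells and 1929 CPM in the others, and Serpina1d 57.8 and 171 CPM, with UMIs in 60% and 62.5% of the cells.

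Proliferation and m6A genes lay near the median of all genes. Of 20 G2/M genes, 2 were past 1 and 0 past -1, with a median of 0.61; Mki67 was found in 82 chosen cells. None of the 18 S genes was past 1 or -1, with a median of 0.41. Of 16 m6A genes that passed, 1 (Igf2bp3) was past 1 and 0 past -1, with a median of 0.41. Mettl3 itself had 71.5 CPM in the chosen cells and 64.0 in the remaining cells, a log2 ratio of 0.16 (0.02 to 0.30), against 12.6 CPM in the EL1 cells that reach the score. Reads of the transgene and of the endogenous gene cannot be told apart here. Of 11 immediate early genes, 0 were past 1 and 1 past -1, with a median of -0.02.

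Markers of other cell types were low in the chosen cells. Of 8 macrophage markers 7 were past -1, and the same held for 5 of 5 endothelial, 4 of 4 fibroblast and 3 of 3 red blood cell markers that passed. Of the T, NK and B cell markers 2 passed, Trbc2 at 0.38 (0.30 to 0.47) and Cd3e past -1. Ptprc and Cd3e had 0 UMIs in the chosen cells. C1qa was found in 157 chosen cells and C1qb in 9, so C1qa was not used to mark macrophages in leaving cells out. The 10 lowest genes by size, Mgp, Fcer1g, Sparc, Ccl2, Rgs5, Fabp4, Cd52, Ctla2a, Cd93 and Trem2, had 1 to 4 UMIs in the chosen cells and 586 to 4160 in the remaining cells. With the cells of other types left out, genes at -1 or less went from 815 of 12100 to 278 of 11516, or 2.41%, and genes at 1 or more from 1260 to 1336, or 11.6%. Centred as well, the percentages were 4.77 at 1 or more and 4.23 at -1 or less. The medians of the secretory, endocrine and acinar lists were then 1.47 for vesicle genes, 1.65 for endocrine factors and -1.36 for acinar enzymes. Neutrophil and glial markers did not reach 50 UMIs, and of the autonomic neuron markers Tubb3 alone did, at 1.75 (1.35 to 2.15).

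**Figure D5:**
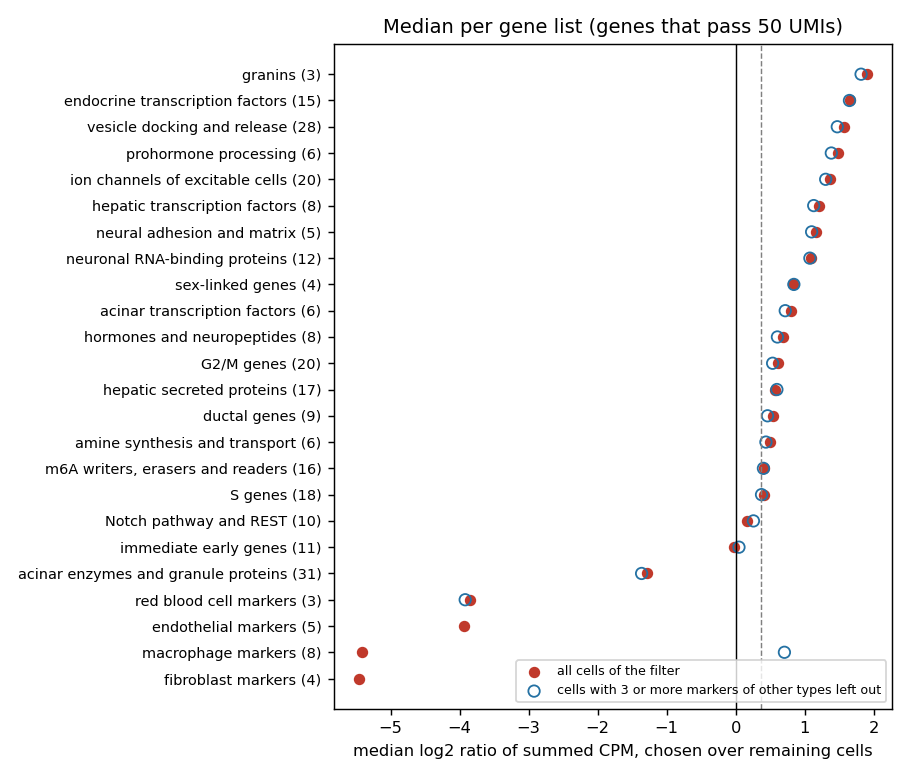
Median log2 ratio, chosen over remaining WTg cells (x axis), of each gene list with at least 3 genes past 50 UMIs (number in brackets, y axis), with all cells (filled) and without cells of other types (open). The dashed line is the median of all genes; granins, endocrine factors and vesicle genes are highest at 1.91, 1.66 and 1.57, and the macrophage median goes from -5.41 to 0.71 when those cells are left out.

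In EL1, 98 of 975 cells, or 10.1% (8.24 to 12.1), reached the lowest chosen score, and the highest EL1 score was 1.93. These EL1 cells had a median depth of 22689 UMIs. Their levels are set side by side with those of the chosen cells, with no test, and they too were taken by the score. Chga was at 11808 CPM against 5881, Resp18 at 166 against 31.4, Hdc at 136 against 15.5 and Penk at 115 against 28.5. Serpina1c was at 399 CPM against 1769.9, Pcsk2 at 15.6 against 133, Syt1 at 2.65 against 22.9 and Serpina1e at 16.6 against 67.8. Insm1 was at 78.0 against 52.6 CPM and Slc18a2 at 109.8 against 75.02. Acinar enzymes took a median of 6.49% of UMIs in these EL1 cells against 11.2%. Of the 180 EL1 cells highest for Penk, Hdc and Tff3, 70 reached the score, and of the 180 WTg cells highest for Ctrl and Cela3b, 5 were chosen cells.

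Chromosome medians lay close together. Over the autosomes they ran from 0.29 on chromosome 4 to 0.45 on chromosome 2, and the 13 mitochondrial genes were at -0.01. Genes of the Y chromosome, examined after their values were seen, were detected unevenly. Of chosen cells with at least 20000 UMIs, 25.3% (18.7 to 32.8) had no UMI of Ddx3y, Eif2s3y, Kdm5d or Uty, against 36.7% (32.4 to 41.2) of the remaining cells and 77.2% (64.2 to 87.3) of the EL1 cells that reach the score. The 4 Y genes had log2 ratios of 0.52 to 0.98. The part of this in the other ratios was not tested.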

How the data were processed

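Cells were measured with the 10x Genomics 3′ kit; the matrices deposited by the authors hold raw UMI counts per gene and barcode, made with Cell Ranger (6.0.2 in the matrix header) on GRCm38; R 4.1 and Seurat 4.0.5 are named in the submitters' processing notes. The second table per library, also deposited counts, holds 1346 WTg barcodes with more than 200 and fewer than 10000 genes, and 0 of its values differed from the matrix. WTg held 1488 barcodes and EL1 1621. The sums of the chosen and remaining cells were 7571129 and 25071615 UMIs, so 3 counts correspond to 0.396 and 0.120 CPM.

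UMIs were summed per group. Intervals are exact Poisson (levels), conditional binomial (ratios) and Clopper-Pearson (shares), at 95%. A group at 0 took 3 counts. No test was made, since WTg is 1 library and cells are not replicates. The members and all lists were chosen with earlier results of these data known. Named genes are the 8 score genes, 29 fixed lists, and the 15 highest and 10 lowest ratios among genes of at least 200 UMIs (for the highest, found in at least 25% of chosen cells) with 1 direction in odd and even cells and with equal weights. Some genes of these lists are not reported here. Positions are from GENCODE M21 (32158 of 32285 IDs matched). Python with scipy and scanpy was used, and the calculations were tested on simulated data. Alternatives were other cell filters, numbers of cells, score genes, doublet removal (Scrublet, 2% expected), the second table, equal weights, centring, gene minimums and thinning depths; leaving out cells of other types was added after seeing the data.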

Additional observations from a re-analysis of the deposited data

Results flagged for a closer look

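The WTg barcodes outside the cell filter, 740 barcodes with 2229248 UMIs that no comparison above uses, held UMIs of 6 of the 8 score genes above the level in the EL1 barcodes outside the same filter (intervals cover counting error only, with 1 library each). The same count over all genes was not made, so 6 of 8 cannot be set against a background share. The 8 genes also define the chosen WTg cells, so their higher levels in WTg are a description only. Serpina1c was at 188 CPM (170.0 to 206) against 26.7 (19.2 to 36.2). Pcsk2 was at 24.7 CPM (18.6 to 32.1) against 1.95 (0.403 to 5.71), and Serpina1b at 11.7 CPM (7.62 to 17.1) against 1.30 (0.158 to 4.71). Snap25 was at 525 CPM against 297, Celf4 at 91.1 against 56.0 and Tnr at 29.6 against 11.1. For the other 2 the intervals overlapped: Serpina1a was at 8.07 CPM (4.79 to 12.8) against 4.56 (1.83 to 9.39), and Chgb at 73.1 (62.3 to 85.2) against 84.7 (70.8 to 100.6). Of these barcodes 61 reached the lowest chosen score, 36 of them over the mitochondrial limit and 42 under the UMI minimum.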

How the results depend on the processing

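No paired analysis was possible because EL1 and WTg are single libraries whose labels hold no pairs. As reported, 1260 genes lay at a log2 ratio of 1 or more and 815 at -1 or less. Of the 105 named genes past 1, all kept their direction under each alternative except 1 with 90 cells, and 74 (score from Serpina1 genes alone) to 105 (doublets removed) stayed past 1. Part of this was fixed in advance. The 105 include the score genes and genes named for high ratios whose direction was already required to hold with equal weights. Centring could not reverse a ratio past 1. Sizes were less stable than directions. Of 303 named genes, 131 moved outside their reported intervals with 90 cells and 150 with 360 cells (for bounds, by 1 or more). The score from Serpina1 genes alone moved 180 and centring moved 203, while doublet removal moved 11 of 302. Centring on the median of all genes gave 580 genes at 1 or more, and medians of 1.20 for vesicle genes, -1.65 for acinar enzymes and 0.43 for acinar factors; it took channel genes past 1 from 15 to 10 of 20 (7 with cells of other types left out as well), adhesion genes from 4 to 2 of 5 and hormone genes from 4 to 2 of 8. The score from Serpina1 genes alone gave 583 genes, and medians of 0.99 for vesicle genes, 1.15 for endocrine factors and -0.71 for acinar enzymes; Serpina6 went to 0.053. With 360 cells the medians were 1.23 for endocrine factors and -0.72 for acinar enzymes, the thinned Slc18a2 share was 13.3% and Gal went to 0.092. With 90 cells acinar enzymes were at -1.58, the Slc18a2 share was 38.9% and Tubb3, with its list, went to -0.0248. The acinar enzyme median was -1.31 from 1000 UMIs per cell, -1.36 without Serpina1 genes in the score and -1.43 with equal weights. Without thinning the Slc18a2 share was 58.3%. Leaving out cells of other types gave 278 genes at -1 or less, -1.36 for acinar enzymes, 0.71 for macrophage markers and for Cd68, 0.53 for Lyz2 and 0.33 for the T, NK and B cell list; that list, with 2 genes as reported, was also at 0.46 (10000 UMIs per cell), 0.44 (doublets removed) and 0.38 (200 UMIs per gene). The fall in lower genes follows from the cells removed; the other causes were not tested. EL1 cells reaching the score numbered 90 to 130 under the alternatives, against 98. Genes with few UMIs in the chosen cells, such as Neurod1 (54) and Nkx2-2 (34), have the wide intervals given above, and no setting adds a second WTg library.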
